A study of Mus musculus with 24 samples.

Results

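The interleukin 1 (IL-1) family was followed in mouse bone marrow-derived dendritic cells through 7 genes of its ligands and inhibitors: Il1a, Il1b, Il18 and Il33, which encode cytokines, and Il1rn, Il18bp and Il1r2, which encode their antagonists. They were taken by name from the 38887 genes of the deposited count table, and all 7 were among the 14188 genes that passed the filter on low counts. The 24 RNA-seq libraries formed 6 groups of 4 samples. IRE1 knockout (KO) and IRE1 wild-type (WT) cells were stimulated with zymosan, stimulated with lipopolysaccharide (LPS), or left untreated. IRE1 is a stress sensor of the endoplasmic reticulum that splices the mRNA of the transcription factor XBP1; zymosan is a yeast cell wall preparation sensed mainly through dectin-1 and Toll-like receptor 2, and LPS is a bacterial outer membrane lipid sensed through Toll-like receptor 4. The labels give neither the dose and duration of stimulation, nor the strain, age and number of the mice, nor the driver of the deletion. The study's title places IRE1-XBP1 signalling in leukocytes beside prostaglandin synthesis and pain, and the question taken here is how the IL-1 family transcripts responded to each stimulus and whether those responses differed in KO cells.

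IL-1α and IL-1β, encoded by Il1a and Il1b, signal through the same receptor, IL1R1, with the co-receptor IL1RAP and the adaptor MyD88. The receptor antagonist encoded by Il1rn binds IL1R1 without signalling, and the decoy receptor encoded by Il1r2 binds IL-1 and lacks a signalling domain. IL-18 has its own receptor and is neutralised by the soluble binding protein encoded by Il18bp, while IL-33 is a nuclear alarmin, best known from epithelial and stromal cells, whose receptor is encoded by Il1rl1. IL-1β and IL-18 are made as precursors that caspase-1 cleaves in inflammasomes, so transcript levels do not give the amount of active cytokine.

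Each library held between 32223256 and 46927434 counts. Levels are CPM, counts relative to library totals scaled by the trimmed mean of M-values. Differences are log2 fold changes with their standard error (SE) from edgeR's quasi-likelihood test, and a difference was called where the p adjusted by Benjamini-Hochberg over the 14188 genes was under 0.05. The median log2 difference of all tested genes lay between -0.04 and 0.02 in every comparison. The labels do not say whether replicates came from separate mice or cultures, so p-values measure only the spread between these samples. In every group replicates 1 and 2 resembled each other, as did 3 and 4: the chi-square per gene was 1.89 to 7.75 in these 12 pairs and 6.35 to 23.2 in the other 24 within-group pairs. Member calls that ended when each such pair was summed to 1 sample are named; this was not computed for other genes.

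Ern1, which encodes IRE1, was not lower in the samples labelled KO. Under zymosan it had 39.2, 38.6, 36.2 and 35.6 CPM in KO samples, against 30.7, 30.3, 30.3 and 29.5 CPM in WT samples. Under LPS the values were 41.8, 41.4, 37.6 and 36.6 CPM in KO samples, against 29.9, 28.0, 29.0 and 27.1 CPM in WT samples. Untreated KO samples had 53.3, 54.6, 48.2 and 49.6 CPM and untreated WT samples 42.3, 43.3, 40.5 and 40.2 CPM. The KO over WT difference was 0.31 (SE 0.05) under zymosan, 0.46 (SE 0.05) under LPS and 0.31 (SE 0.05) in untreated cells. The counts cover the whole gene and the position of the deletion is not given in the sources used here, so the count does not check the genotype labels, and KO and WT below are the groups as labelled.

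All 9 dendritic cell markers on the list used were detected, led by Cd74 at 2822 CPM in KO zymosan, 2804 CPM in KO LPS and 2643 CPM in KO untreated cells, and Itgax, which encodes CD11c, averaged 1051 to 1309 CPM over the 6 groups. Flt3, which marks dendritic cells grown with its ligand, was at 0.931 to 2.34 CPM. The summed level of the 9 was 7114 to 7637 CPM in KO and 5969 to 6203 CPM in WT samples under zymosan, 6799 to 7210 CPM in KO and 6149 to 6712 CPM in WT samples under LPS, and 6033 to 6294 CPM in KO and 4962 to 5165 CPM in WT untreated samples. Markers of other cells differed between genotypes. The 9 eosinophil markers summed to 48.2 to 62.3 CPM in KO and 938 to 1271 CPM in WT samples under zymosan, to 47.6 to 56.7 CPM in KO and 995 to 1067 CPM in WT samples under LPS, and to 49.0 to 58.7 CPM in KO and 835 to 1121 CPM in WT untreated samples. None of the 9 was at 0 in all samples of a group. Markers of T, B and NK cells summed to at most 1.77 CPM in any sample.

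Il1a and Il1b lie on the minus strand of chromosome 2 with 54597 bases between them, and their start regions are shown because their transcripts moved most alike among the members. The 250 bases before each start site are from the RefSeq table of build GRCm38.p6, which matched all 7 members with 10 start sites; Il1a is chr2:129309973-129310222 and Il1b is chr2:129371140-129371389, both minus strand. Capitals mark the letters TATAAA in both and, in Il1a, TGACTCA, a match to the AP-1 motif.
Il1a: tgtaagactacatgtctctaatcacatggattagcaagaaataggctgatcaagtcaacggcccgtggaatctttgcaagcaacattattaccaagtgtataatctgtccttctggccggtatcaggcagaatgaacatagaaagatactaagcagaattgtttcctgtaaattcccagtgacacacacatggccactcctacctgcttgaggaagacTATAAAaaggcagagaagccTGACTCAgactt
Il1b: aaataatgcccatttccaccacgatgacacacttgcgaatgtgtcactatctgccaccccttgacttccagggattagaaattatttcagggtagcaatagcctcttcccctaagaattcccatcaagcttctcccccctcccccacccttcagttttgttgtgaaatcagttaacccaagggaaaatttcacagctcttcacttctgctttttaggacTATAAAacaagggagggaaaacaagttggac
TATAAA stood 32 to 27 bases before the start of Il1a and 31 to 26 bases before that of Il1b, on the gene's strand. It was not particular to these genes. On the gene's strand TATAAA also stood 29 to 24 bases before a start of Il33 and 203 to 198 bases before another. On the opposite strand it stood 175 to 170 bases before a start of Il18. These letters occurred on either strand in 12.4% of 32817 promoter windows of this length. The AP-1 motif, TGANTCA, was found in 6.75% of windows; it stood 12 to 6 bases before the start of Il1a and 141 to 135 bases before a start of Il1rn, and in no window of the other 5 members. The C/EBP motif, TTNNGCAA, was found in 9.57% of windows. It stood 49 to 42 bases before the start of Il18bp and 85 to 78 bases before a start of Il33, both on the opposite strand. The kappaB motif (7.25% of windows) and TGACGTCA of cyclic AMP response elements (1.55%) were in none of the 10 windows. The letters of the kappaB pattern are not given here, so its absence covers only the pattern searched within 250 bases. A match is a description of letters, not a binding site.

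The cytokine genes Il1a and Il1b were among the most abundant transcripts of stimulated cells. Ranked by counts per exon length among 14006 genes, Il1b stood at place 19 under zymosan in KO and 12 in WT cells, at 19 under LPS in KO and 10 in WT cells, and at 283 in KO and 268 in WT untreated cells. The Il1a places were 22 in KO and 19 in WT cells under zymosan, 37 in KO and 26 in WT cells under LPS, and 197 in KO and 215 in WT untreated cells.

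For Il1a, which encodes the IL-1 that is active also as a precursor, KO samples under zymosan had 3726, 3824, 4416 and 3921 CPM, against 4555, 4381, 4543 and 4613 CPM in WT samples. Under LPS it had 2535, 2601, 2903 and 2886 CPM in KO samples, against 3698, 3677, 4064 and 3905 CPM in WT samples. In untreated cells it had 461, 445, 538 and 516 CPM in KO samples, against 457, 453, 443 and 426 CPM in WT samples. Every stimulated sample lay above every untreated sample, KO and WT separated fully under LPS, and 1 KO sample reached into the WT range under zymosan. Of neighbours in the order of means, the ranges of WT zymosan and KO zymosan, of KO zymosan and WT LPS, and of the untreated groups overlapped.

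Il1b, the inflammasome substrate, had 4388, 4427, 4713 and 4308 CPM in KO samples under zymosan, against 5738, 5727, 5640 and 5688 CPM in WT samples. KO samples given LPS had 3957, 4137, 4419 and 4413 CPM, against 5718, 5996, 6367 and 6262 CPM in WT samples. Untreated samples had 313, 309, 335 and 324 CPM in KO and 348, 363, 321 and 309 CPM in WT cells. The stimulated WT groups stood above the stimulated KO groups with no overlap; within each genotype the zymosan and LPS ranges overlapped, and so did the untreated groups. Reads of Il1b and of its antisense gene Il1bos overlap on opposite strands, and the use of strand in counting is not given in the sources used here; Il1bos averaged 22.2 CPM in KO and 28.5 CPM in WT cells under LPS.

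Il1rn, the receptor antagonist, was already abundant without stimulation, at place 203 in KO and 168 in WT untreated cells by counts per exon length. Its KO samples under zymosan had 2376, 2347, 3005 and 2752 CPM, against 3536, 4013, 3877 and 4183 CPM in WT samples. LPS-treated samples had 2496, 2546, 2848 and 2879 CPM in KO and 4355, 4250, 4321 and 4398 CPM in WT cells. Untreated samples had 1304, 1237, 1471 and 1418 CPM in KO and 1598, 1636, 1666 and 1670 CPM in WT cells. KO lay below WT without overlap in all 3 conditions, and only the KO zymosan and KO LPS ranges overlapped among neighbours in the order of means.

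Il1r2, the decoy receptor, was lowest in WT cells given LPS. It had 99.0, 102, 79.0 and 73.3 CPM in KO samples under zymosan, against 116, 128, 75.6 and 80.0 CPM in WT samples. Under LPS the decoy had 73.8, 73.3, 83.9 and 86.0 CPM in KO samples, against 53.4, 54.1, 57.1 and 57.9 CPM in WT samples. Its untreated values were 124, 123, 95.2 and 92.1 CPM in KO samples and 133, 141, 94.6 and 93.6 CPM in WT samples. The WT LPS group was the lowest and overlapped no other, while all other neighbours in the order of means overlapped. In untreated and zymosan-treated cells of both genotypes, replicates 1 and 2 were above replicates 3 and 4. The summed level of 12 neutrophil markers, all with a mean over 1 CPM in every group, split the same way: 2338 CPM in replicates 1 and 2 and 1996 CPM in 3 and 4 of KO zymosan, 2783 and 2064 CPM in WT zymosan, 2561 and 2186 CPM in KO untreated, and 2989 and 2331 CPM in WT untreated cells. Il1r2 is also expressed by neutrophils, and the part of these markers in its values was not tested.

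Il18 was the least abundant member per exon length without stimulation, at place 11312 in KO and 11212 in WT cells and 13 to 35 counts in an untreated library. It had 2.12, 2.05, 2.54 and 2.55 CPM in KO samples under zymosan, against 4.03, 5.11, 4.51 and 4.18 CPM in WT samples. LPS-treated samples had 7.40, 7.09, 8.48 and 8.09 CPM in KO and 13.7, 14.8, 14.7 and 14.4 CPM in WT cells. Untreated samples had 0.369, 0.413, 0.497 and 0.410 CPM in KO and 0.288, 0.393, 0.474 and 0.670 CPM in WT cells. The 4 stimulated groups were fully separate, and the untreated groups overlapped. The Bco2 gene overlaps Il18 on the other strand and its counts followed the same order under stimulation, at 1.12 CPM in KO and 1.84 CPM in WT cells under zymosan and 2.85 CPM in KO and 4.99 CPM in WT cells under LPS; without strand, reads of the genes cannot be told apart.

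Il18bp, the soluble inhibitor of IL-18, had 41.3, 41.1, 48.4 and 46.7 CPM in KO samples under zymosan, against 42.8, 50.9, 46.8 and 50.0 CPM in WT samples. Under LPS the inhibitor had 58.7, 60.3, 63.3 and 62.8 CPM in KO samples, against 86.6, 79.2, 78.4 and 82.6 CPM in WT samples. Untreated KO samples had 15.1, 15.9, 15.8 and 16.3 CPM, and untreated WT samples had 9.40, 9.74, 11.0 and 12.6 CPM. KO was therefore above WT without overlap in untreated cells, below WT without overlap under LPS, and overlapped it under zymosan. Il18bp overlaps Numa1 on the other strand, whose mean was between 77.3 and 99.0 CPM over the groups, so part of the low untreated count cannot be assigned to Il18bp with certainty.

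Il33 had 7.24, 8.37, 14.4 and 11.8 CPM in KO samples under zymosan, against 11.7, 11.0, 12.8 and 11.0 CPM in WT samples. LPS-treated samples had 12.7, 12.7, 14.5 and 15.7 CPM in KO and 20.5, 18.2, 18.0 and 17.7 CPM in WT cells. Untreated samples had 4.75, 5.13, 7.64 and 8.24 CPM in KO and 4.09, 3.81, 5.71 and 5.73 CPM in WT cells. WT LPS stood above all other groups, and all neighbours below it overlapped. Replicates 3 and 4 exceeded replicates 1 and 2 in KO zymosan, KO LPS and both untreated groups, while in WT LPS replicates 1 and 2 were higher than 3 and 4 on average (19.4 and 17.8 CPM) and in WT zymosan the replicates were mixed. The 7 stromal markers, a class that includes sources of Il33 in tissue, summed to 6.06 to 10.6 CPM in KO and 4.31 to 6.57 CPM in WT samples under zymosan, 6.54 to 8.51 CPM in KO and 8.40 to 11.0 CPM in WT samples under LPS, and 4.03 to 8.25 CPM in KO and 3.07 to 5.30 CPM in WT untreated samples. Their mean sum over replicates 3 and 4 exceeded that over 1 and 2 in all 6 groups: 9.95 and 6.93 CPM in KO zymosan, 6.22 and 5.25 CPM in WT zymosan, 7.80 and 6.63 CPM in KO LPS, 9.69 and 9.41 CPM in WT LPS, 7.73 and 5.57 CPM in KO untreated, and 5.03 and 3.17 CPM in WT untreated cells. The part of these markers in the Il33 values was not tested.

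**Figure D1:**
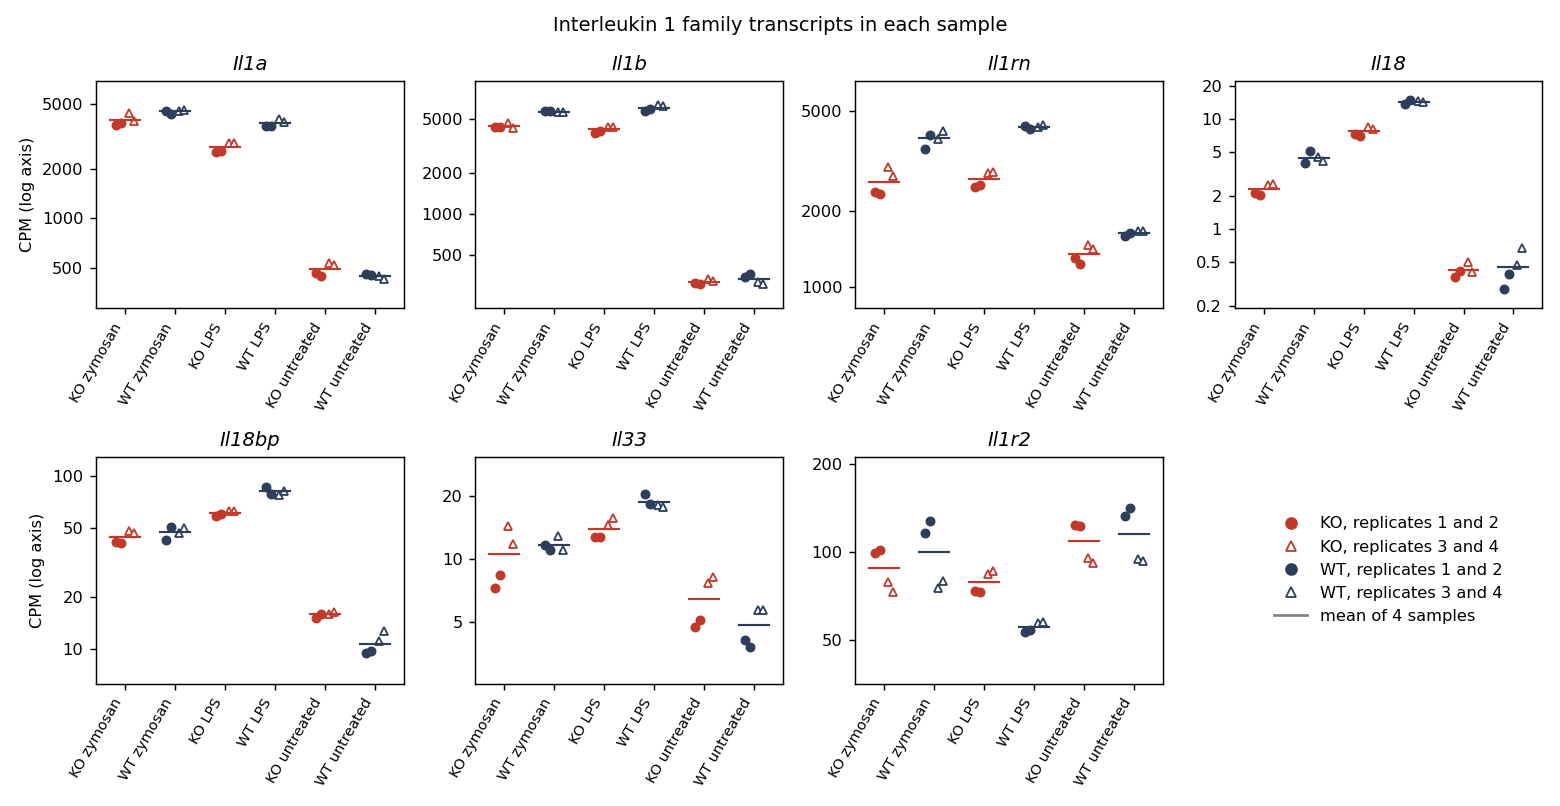
Level of each member in each of the 24 samples, as CPM on a log axis that differs between panels, by genotype and treatment; filled circles are replicates 1 and 2, open triangles replicates 3 and 4, and the line is the mean of 4. Il1a, Il1b, Il1rn, Il18, Il18bp and Il33 are higher in stimulated than in untreated groups on average, Il1r2 is lowest in WT LPS at 55.6 CPM, and KO lies below WT for Il1b, Il1rn and Il18 under both stimuli.

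Stimulation raised 6 of the 7 members in each of the 4 within-genotype comparisons: the 4 cytokine genes, Il1rn and Il18bp. Under zymosan, 34.3% of tested genes were called higher in WT cells and 35.9% lower, and 31.6% were called higher in KO cells and 35.2% lower; the members counted 6 higher and 0 lower in both genotypes. Under LPS, 35.9% of tested genes were called higher in WT cells and 39.7% lower, and 34.4% higher in KO cells and 37.4% lower; the members counted 6 higher and 1 lower in both. The median log2 change of the 7 members under zymosan was 1.49 in KO and 2.15 in WT cells, and under LPS it was 1.96 in KO and 2.93 in WT cells. In these bulk libraries, a change in the number of cells carrying a transcript and a change in its amount per cell cannot be told apart.

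The largest fold change among the members was that of Il18 under LPS, with means of 7.77 ± 0.637 CPM in KO LPS and 0.422 ± 0.054 CPM in KO untreated cells (SD, n = 4 each). This is 18.3-fold higher with LPS in KO cells (log2 4.20, SE 0.14, edgeR adjusted p = 5.46e-19) and compares with a 31-fold rise in WT cells (log2 4.96, SE 0.13, edgeR adjusted p = 5.59e-21). Zymosan raised Il18 by 5.45-fold in KO and 9.61-fold in WT cells. Il1b averaged 4231 ± 226 CPM in KO LPS and 320 ± 11.9 CPM in KO untreated cells (SD, n = 4 each), 13.2-fold higher, and was 18.1-fold higher with LPS in WT cells. With zymosan Il1b was 13.9-fold higher in KO and 17.0-fold higher in WT cells, and Il1a was 8.10-fold higher in KO and 10.2-fold higher in WT cells. LPS raised Il1a by 5.57-fold in KO and 8.62-fold in WT cells.

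The inhibitors Il1rn and Il18bp rose less than the ligands they oppose, for which the ratios within libraries give the test. Il1rn rose by 1.93-fold in KO and 2.38-fold in WT cells with zymosan and by 1.98-fold in KO and 2.64-fold in WT cells with LPS. Il18bp rose by 2.81-fold in KO and 4.45-fold in WT cells with zymosan and by 3.88-fold in KO and 7.62-fold in WT cells with LPS. Il33 rose by 1.61-fold in KO cells with zymosan, where the sample ranges overlapped (log2 0.69, SE 0.18, edgeR adjusted p = 0.00167), and by 2.40-fold in WT cells. With LPS Il33 rose by 2.16-fold in KO and 3.84-fold in WT cells.

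Il1r2 fell under LPS in both genotypes. Its log2 change was -0.45 in KO cells (SE 0.15, edgeR adjusted p = 0.0109), no longer called with replicate pairs summed (adjusted p = 0.112), and -1.05 in WT cells (SE 0.16, edgeR adjusted p = 1.38e-06). With zymosan the change was -0.30 in KO cells (SE 0.15, edgeR adjusted p = 0.0939) and -0.21 in WT cells (SE 0.15, edgeR adjusted p = 0.235), neither past the threshold. With the replicate number as a block, a pairing that the labels do not give, the KO change of -0.30 was called (edgeR adjusted p = 0.0354). With replicate pairs summed the KO change was not called (edgeR adjusted p = 0.305). Without WT zymosan replicate 2, the WT change was -0.35 and called (adjusted p = 0.0495).

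**Figure D2:**
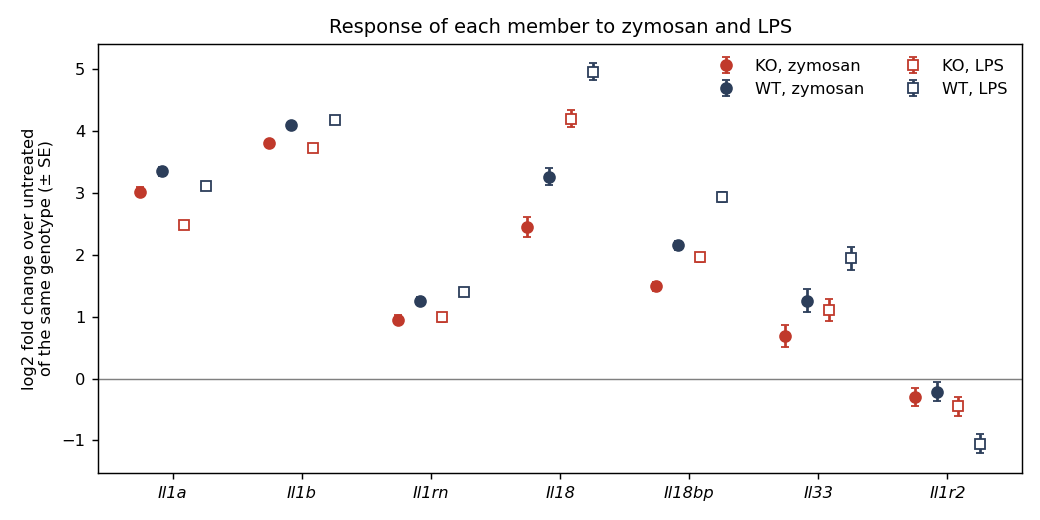
Log2 fold change of each member over untreated cells of the same genotype, with SE bars from edgeR's fit; circles are zymosan, squares LPS. Il1r2 lies below 0 and the other 6 members above it, the KO point lies below the WT point of the same stimulus for those 6, and Il18 under LPS has the highest values, at 4.20 in KO and 4.96 in WT cells.

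The stimuli were set against each other within each genotype. In WT cells, 24.5% of tested genes were called higher with zymosan than with LPS and 21.9% lower; among the members 2 were higher, 3 lower and 2 not called. In KO cells, 22.7% were called higher and 20% lower; among the members 1 was higher, 2 lower and 4 not called. Il18 was 3.37-fold lower with zymosan than with LPS in KO cells (log2 -1.75, SE 0.11) and 3.23-fold lower in WT cells (log2 -1.69, SE 0.10). Il18bp was lower with zymosan too, by 1.38-fold in KO and 1.71-fold in WT cells, while Il1a was higher, by 1.45-fold in KO and 1.18-fold in WT cells.

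Il33 differed by -0.68 in WT cells (SE 0.17, edgeR adjusted p = 0.00169) and by -0.42 in KO cells, where it missed the threshold (SE 0.17, edgeR adjusted p = 0.0508) and was called without KO zymosan replicate 3 (-0.61, adjusted p = 0.00597) or replicate 4 (-0.49, adjusted p = 0.0413), with DESeq2 size factors (adjusted p = 0.0448) and with no filter (adjusted p = 0.0342). Il1r2 was 1.80-fold higher with zymosan in WT cells (edgeR adjusted p = 8.65e-05), and its difference of 0.16 in KO cells was not called (edgeR adjusted p = 0.441). That KO difference was 0.45 with replicates 1 and 2 only and -0.17 with replicates 3 and 4 only. Il1b differed by 0.08 (SE 0.05) in KO and -0.09 (SE 0.05) in WT cells, and Il1rn by -0.04 (SE 0.07) in KO and -0.15 (SE 0.07) in WT cells; none of these 4 was called. Il1rn in WT cells was called without WT zymosan replicate 4 (-0.19, adjusted p = 0.0497), with DESeq2 (adjusted p = 0.0424) and with only the groups compared in the fit (adjusted p = 0.029). With replicate pairs summed, the WT calls of Il1a (adjusted p = 0.085) and Il33 (adjusted p = 0.062) ended. No member's zymosan to LPS difference was itself called different between KO and WT cells; 0.634% of tested genes were called lower and 0.839% higher there, the smallest member p being that of Il1a (0.30, SE 0.09, edgeR adjusted p = 0.0745), with 4 members under an unadjusted p of 0.05 in edgeR's test and 2 called by DESeq2.

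KO cells had less of most members than WT cells once stimulated. Under zymosan 11.4% of tested genes were called lower in KO cells and 10.6% higher; of the members, Il1a, Il1b, Il1rn and Il18 were lower and 0 higher, with a median of -0.19. Under LPS 18.2% were called lower and 15.6% higher; Il1a, Il1b, Il1rn, Il18 and Il18bp were lower and Il1r2 higher, with a median of -0.49. In untreated cells 5.64% were called lower and 4.31% higher; Il1rn was lower, Il18bp higher and 5 members were not called, with a median of -0.07.

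Il18 had the largest genotype difference. It averaged 2.31 ± 0.268 CPM in KO and 4.46 ± 0.478 CPM in WT cells under zymosan (SD, n = 4 each), 1.94-fold lower in KO cells (log2 -0.95, SE 0.12, edgeR adjusted p = 1.19e-06). Under LPS its mean was 7.77 ± 0.637 CPM in KO and 14.4 ± 0.477 CPM in WT cells (SD, n = 4 each), 1.86-fold lower in KO cells (log2 -0.89, SE 0.09, edgeR adjusted p = 7.84e-08). Without stimulation the difference was -0.14 (SE 0.21, edgeR adjusted p = 0.789), and it was 0.12 without WT untreated replicate 4.

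Il1rn was lower in KO cells in all 3 conditions, by 1.49-fold under zymosan (log2 -0.57, SE 0.07, edgeR adjusted p = 1.25e-06), 1.61-fold under LPS (log2 -0.69, SE 0.07, edgeR adjusted p = 5.73e-08) and 1.21-fold in untreated cells (log2 -0.28, SE 0.07, edgeR adjusted p = 0.0108). The untreated call ended without KO untreated replicate 2 (-0.23, adjusted p = 0.0589) and with replicate pairs summed (adjusted p = 0.296). Il1b was 1.28-fold lower in KO cells under zymosan (log2 -0.35, SE 0.05, edgeR adjusted p = 1.27e-05) and 1.44-fold lower under LPS (log2 -0.52, SE 0.05, edgeR adjusted p = 2.37e-08). Il1b differed by -0.07 (SE 0.05) in untreated cells, which was not called.

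Il1a was 1.40-fold lower in KO cells under LPS (log2 -0.49, SE 0.06, edgeR adjusted p = 1.2e-06). Its zymosan difference was smaller, at -0.19 (SE 0.06, edgeR adjusted p = 0.029), and that call ended without KO zymosan replicate 1, 2 or 4 or WT zymosan replicate 1, 3 or 4 (adjusted p 0.054 to 0.106, differences -0.18 to -0.16) and with replicate pairs summed (adjusted p = 0.286). Il1a differed by 0.14 (SE 0.06) in untreated cells, which was not called.

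Il18bp changed sign between conditions. It was 1.47-fold higher in KO than WT cells when untreated (log2 0.56, SE 0.08, edgeR adjusted p = 9.86e-06), 1.33-fold lower under LPS (log2 -0.42, SE 0.07, edgeR adjusted p = 3.41e-05), and -0.11 (SE 0.07, edgeR adjusted p = 0.301) under zymosan. Il1r2 was 1.42-fold higher in KO cells under LPS (log2 0.51, SE 0.16, edgeR adjusted p = 0.0139), no longer called with replicate pairs summed (adjusted p = 0.179). Il33 under LPS differed by -0.42 (SE 0.17, edgeR adjusted p = 0.0528), just outside the threshold although the ranges did not overlap. It was called without KO LPS replicate 4 (-0.48, adjusted p = 0.0449), with DESeq2 size factors (adjusted p = 0.0495), with no filter (adjusted p = 0.0369) and with only the groups compared in the fit (-0.41, adjusted p = 0.00121).

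These genotype differences stood beside differences in markers of other cells. Over all tested genes, 11.4% were called lower and 10.6% higher in KO cells under zymosan. The shares were 18.2% and 15.6% under LPS, and 5.64% and 4.31% in untreated cells. Of the 8 tested eosinophil markers, 7 were lower in KO cells under zymosan, 8 under LPS and 7 in untreated cells, with the summed ranges given above. Of the 10 macrophage and monocyte markers, 9 were lower in KO cells under LPS and 1 higher, with sums of 2318 to 2406 CPM in KO and 3154 to 3383 CPM in WT samples. Under zymosan 5 of these were lower and 1 higher, with sums of 2413 to 2681 CPM in KO and 2760 to 3032 CPM in WT samples. In untreated cells 2 were lower and 1 higher, with sums of 2265 to 2518 CPM in KO and 2211 to 2554 CPM in WT samples, and no macrophage marker was at 0 in all samples of a group. LPS itself changed markers on this list. In WT cells 6 of the 10 were called higher with LPS than untreated and 3 lower, beside 35.9% and 39.7% of all tested genes. In KO cells 4 were higher and 4 lower, beside 34.4% and 37.4%. Fcgr1 averaged 302 CPM in KO and 514 CPM in WT cells under LPS, against 69.3 and 69.8 CPM untreated. Thus a difference in cell number and one in the LPS response of these markers cannot be told apart. Of the 9 dendritic cell markers, 5 were higher in KO cells in each condition, with the sums given above, and 2 were lower under zymosan, 1 under LPS and 1 in untreated cells. The part of eosinophil, macrophage and dendritic cell markers in the lower Il1a, Il1b, Il1rn and Il18 was not tested. Of the neutrophil markers under LPS, 4 of 12 were higher in KO cells and 4 lower, with sums of 2029 to 2292 CPM in KO and 1817 to 1964 CPM in WT samples, beside the higher Il1r2; their part in it was not tested.

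**Figure D3:**
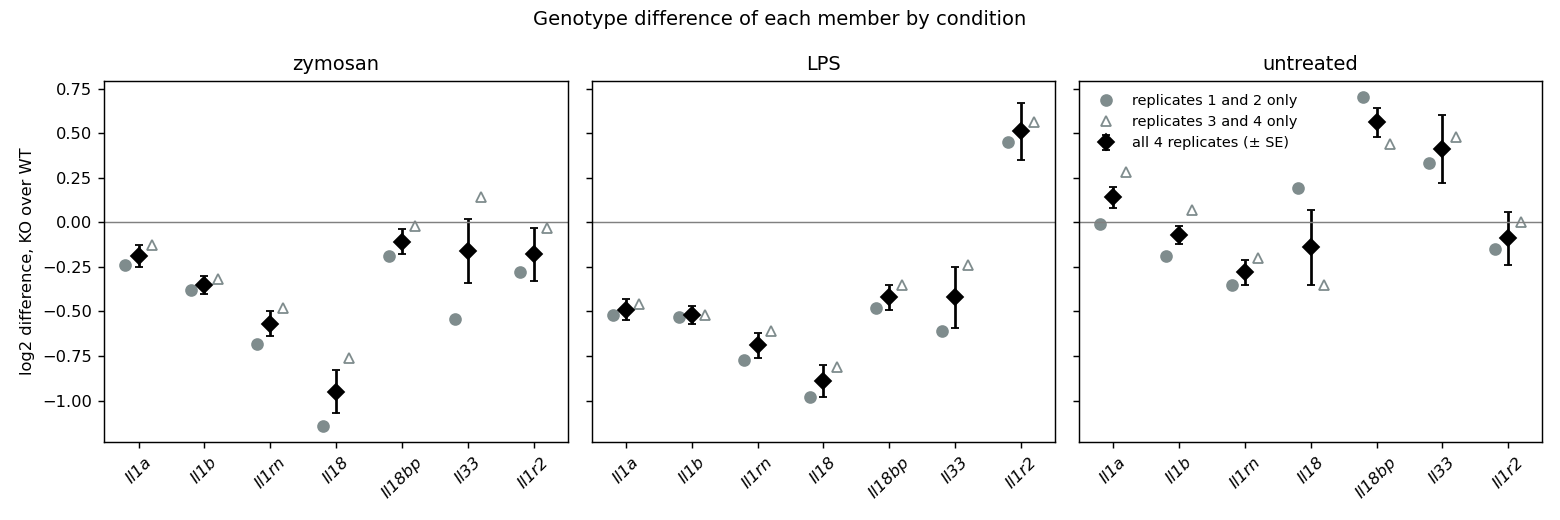
Log2 difference KO over WT of each member under zymosan, under LPS and in untreated cells; black diamonds with SE bars are the fit to all 4 replicates, grey circles and open triangles the fits to replicates 1 and 2 and to 3 and 4. Under LPS 6 members lie below 0 and Il1r2 above it in both subsets, while the subset values lie on either side of 0 for Il33 under zymosan and for Il1a, Il1b and Il18 in untreated cells.

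Whether the responses themselves differed between genotypes was tested as an interaction. For LPS, 5.84% of tested genes had a called lower and 4.61% a called higher log2 response in KO than in WT cells; 6 members had a lower response in KO cells and Il1r2 was not called. The difference was -0.97 for Il18bp (SE 0.10, edgeR adjusted p = 3.04e-06), -0.63 for Il1a (SE 0.09, edgeR adjusted p = 9.16e-05), -0.46 for Il1b (SE 0.07, edgeR adjusted p = 0.00037) and -0.41 for Il1rn (SE 0.10, edgeR adjusted p = 0.00921). It was -0.76 for Il18 (SE 0.23, edgeR adjusted p = 0.0345) and -0.83 for Il33 (SE 0.25, edgeR adjusted p = 0.0341), and for Il1r2 0.60 (SE 0.22, edgeR adjusted p = 0.082), called without WT untreated replicate 4 (0.69, adjusted p = 0.0448) and with only the groups compared in the fit (adjusted p = 0.0311). The Il18 call ended without any single one of KO LPS replicates 1 and 2, KO untreated replicates 2, 3 and 4, WT LPS replicate 4 and WT untreated replicates 1, 2 and 3 (adjusted p 0.0502 to 0.0953). The Il33 call ended without any single one of KO LPS replicates 1 and 2, KO untreated replicates 3 and 4, WT LPS replicates 1 and 4 and WT untreated replicates 1 and 2 (adjusted p 0.0509 to 0.0958). In the same comparison 7 of the 10 macrophage and monocyte markers, some of which LPS itself raised or lowered, were called lower and 0 higher. Their median was -0.54 beside -0.63 for the members. Of the 7 stromal markers 1 was called lower and 0 higher, with a median of -0.87. The part of both lists in the members' values was not tested. With replicate pairs summed, only Il18bp was still called of these 6, the adjusted p being 0.15 for Il1a, 0.187 for Il1b, 0.307 for Il1rn, 0.325 for Il18 and 0.4 for Il33.

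For zymosan, 0.846% of tested genes had a called lower and 0.973% a called higher response in KO than in WT cells. Il18bp had a lower response, by -0.66 (SE 0.10, edgeR adjusted p = 0.00154), and so did Il1b, by -0.29 (SE 0.07, edgeR adjusted p = 0.0397). The Il1b call ended when any of KO zymosan replicates 1, 2 and 4, KO untreated replicates 1, 3 and 4, all 4 WT zymosan replicates or WT untreated replicates 3 and 4 was left out (adjusted p 0.0505 to 0.0903), with DESeq2 size factors (adjusted p = 0.0529), with no filter (adjusted p = 0.0602) and with only the groups compared (adjusted p = 0.0745). Il1a had -0.33 (SE 0.09, edgeR adjusted p = 0.0506) and was called without KO zymosan replicate 3 or KO untreated replicate 1 or 2 (adjusted p 0.0131 to 0.0449) and with DESeq2 (adjusted p = 0.0144). Il18 had -0.82 (SE 0.24, edgeR adjusted p = 0.0822) and was called without WT untreated replicate 4 (-1.08, adjusted p = 0.0169) and with DESeq2 (adjusted p = 0.049), and Il1rn had -0.30 (SE 0.10, edgeR adjusted p = 0.138) and was called without KO zymosan replicate 3 (-0.37, adjusted p = 0.0303). With the replicate number as a block 5 members were called, and with replicate pairs summed 0 were in edgeR's test, 4 having an unadjusted p under 0.05, the adjusted p being 0.594 for Il18bp and 0.898 for Il1b.

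Ratios within a library compare antagonist and ligand without any scaling between libraries. They were taken from counts per exon length and compared by exact two-sided permutation tests of 4 against 4 samples. The smallest p is 0.0286, or 0.0332 after Benjamini-Hochberg adjustment over the 36 tests. The tests take the 4 samples as separate, although replicates 1 and 2, and 3 and 4, resembled each other. With pairs summed no permutation test can pass. Exon lengths merge all annotated exons of a gene, at 5535 bases for Il1rn, 1974 for Il1a and 1907 for Il1b. For Il18bp the length is 3026 bases and for Il18 1031 bases. Whether a ratio lies above or below 1 depends on these lengths, while differences in log2 ratio between groups do not. The ratio of Il1rn to Il1b was 0.187, 0.183, 0.220 and 0.220 in KO samples under zymosan, against 0.212, 0.241, 0.237 and 0.253 in WT samples. Under LPS it was 0.217, 0.212, 0.222 and 0.225 in KO samples, against 0.262, 0.244, 0.234 and 0.242 in WT samples. In untreated cells it was 1.44, 1.38, 1.51 and 1.51 in KO samples, against 1.58, 1.55, 1.79 and 1.86 in WT samples. By counts per exon length, untreated cells thus held more antagonist than Il1b transcript and stimulated cells less, with no overlap. The log2 ratio was lower by -2.86 with zymosan and -2.74 with LPS in KO cells and by -2.84 and -2.78 in WT cells (exact permutation p = 0.0286 for each).

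Between genotypes the Il1rn to Il1b ratio was lower in KO cells under LPS (log2 -0.16, SE 0.04, exact permutation p = 0.0286) and in untreated cells (log2 -0.21, SE 0.07, exact permutation p = 0.0286), and under zymosan it differed by -0.23 (SE 0.09, exact permutation p = 0.0857) with overlapping samples. The Il1rn to Il1a ratio separated the genotypes in each condition: its geometric mean was 0.235 in KO and 0.307 in WT cells under zymosan, 0.351 in KO and 0.403 in WT cells under LPS, and 0.988 in KO and 1.32 in WT untreated cells (exact permutation p = 0.0286 for each).

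The Il1a to Il1b ratio was 0.859 in KO and 0.767 in WT cells under zymosan, 0.623 in KO and 0.609 in WT cells under LPS, and 1.48 in KO and 1.28 in WT untreated cells. It was higher with zymosan than with LPS, by 0.46 in KO and 0.33 in WT cells on the log2 scale, and under LPS the genotypes overlapped (log2 0.03, SE 0.02, exact permutation p = 0.2). The Il18bp to Il18 ratio was 6.55 in KO and 3.65 in WT cells under zymosan, 2.69 in KO and 1.93 in WT cells under LPS, and 12.8 in KO and 8.31 in WT untreated cells. It was higher in KO cells by 0.84 under zymosan and 0.48 under LPS (exact permutation p = 0.0286 for each), and by 0.62 in untreated cells with overlap (SE 0.18, exact permutation p = 0.0571). Thus, by counts per exon length, the IL-18 inhibitor transcript exceeded that of its ligand in every group. By the same measure the IL-1 receptor antagonist transcript was below both ligands in stimulated cells. Without division by length, Il1rn averaged 4331 CPM and Il1a 3836 CPM in WT LPS. In the other stimulated groups the mean CPM of Il1rn was below that of Il1a.

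**Figure D4:**
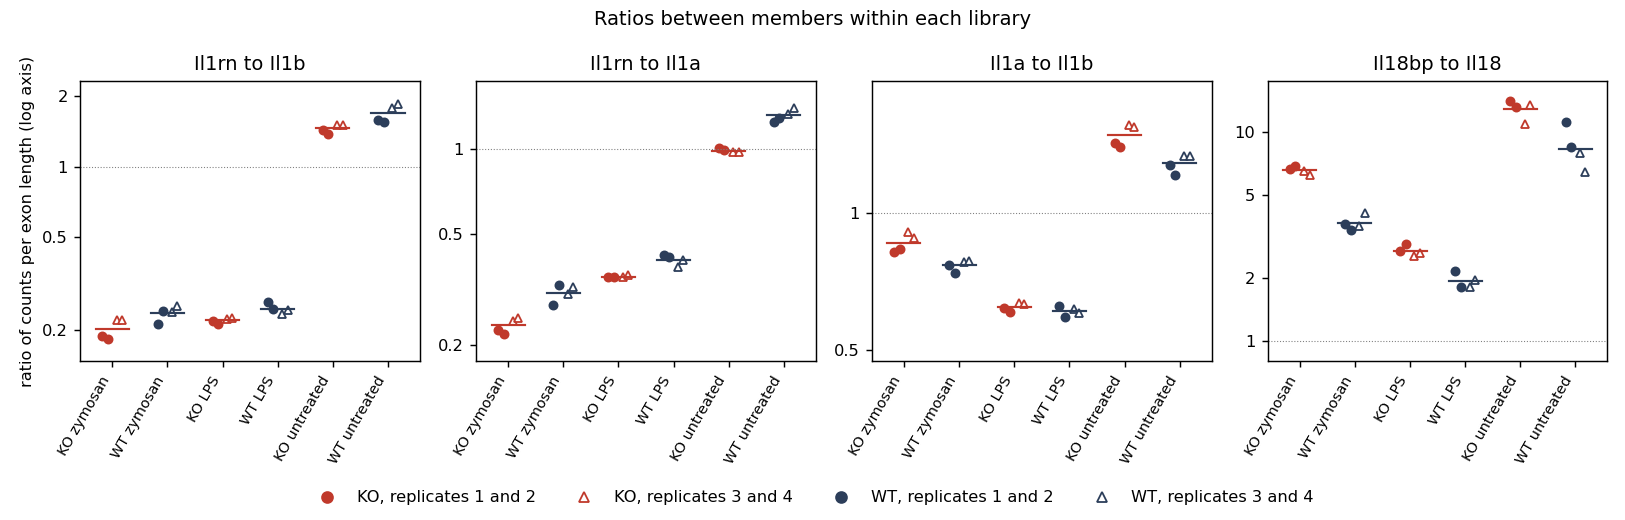
Ratios of counts per exon length between members within each of the 24 libraries, on log axes that differ between panels; symbols are as in the plot of levels and lines are geometric means of 4 samples. Il1rn to Il1b is 1.38 to 1.86 in untreated and 0.183 to 0.262 in stimulated samples, and Il18bp to Il18 is above 1 in every sample.

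Across the 24 samples the log2 levels of Il1a and Il1b had a Pearson correlation of 0.992, the highest among the members, Il18 and Il18bp 0.969, and Il33 and Il1r2 -0.832, the lowest. These values describe samples that share treatment and library. Among 9076 named genes whose mean reached 5 CPM, the profiles most like Il1a were those of Ptgs2 (0.998), which encodes the inducible cyclooxygenase COX-2, Clec4e (0.996), which encodes the C-type lectin receptor Mincle, and Samd9l (0.995). For Il1b they were Il6, Rffl and Ccrl2 (0.998 each), for Il1rn Fpr1 (0.991), which encodes a formyl peptide receptor, Naip2 (0.99) and Tbrg1 (0.99), and for Il18 Penk (0.994), H2-T10 (0.992) and Tarm1 (0.991). Il18bp was most like Calhm6 (0.995), the interferon-inducible guanylate-binding protein gene Gbp3 (0.992) and Car13 (0.992). The values were lower for Il33, with Coa5 at 0.964, Ly9 at 0.963 and Vamp3 at 0.962, and for Il1r2, with Stk26 at 0.956, F5 at 0.943 and Pygl at 0.942.

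Other ligands of the family rose as well. Of 5 genes, Il1f6 and Il1f9, which encode IL-36α and IL-36γ, were tested, and both rose with each stimulus in each genotype and were lower in KO cells under each stimulus. Il1f6 averaged 22.3 CPM in KO and 45.2 CPM in WT cells under zymosan (log2 -1.02, SE 0.10, edgeR adjusted p = 3.79e-08) and 40.5 CPM in KO and 72.1 CPM in WT cells under LPS (log2 -0.83, SE 0.10, edgeR adjusted p = 3.48e-07). Il1f9 averaged 123 CPM in KO and 162 CPM in WT cells under zymosan and 104 CPM in KO and 138 CPM in WT cells under LPS.

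The receptors went the other way. Of 9 genes 7 were tested, and Il1rapl1 and Il1rapl2 had no counts. In each of the 4 comparisons with untreated cells 6 receptors fell and 1, Il1rap, which encodes the shared co-receptor, rose, beside the 35.2% to 39.7% of all tested genes called lower. Il1rl1, the IL-33 receptor gene, averaged 4.05 CPM in KO and 10.7 CPM in WT cells under zymosan (log2 -1.40, SE 0.10, edgeR adjusted p = 5.94e-11), 4.20 CPM in KO and 7.24 CPM in WT cells under LPS, and 10.3 CPM in KO and 18.1 CPM in WT untreated cells, and was called lower in KO cells in all 3. Il1rl1 is also expressed by eosinophils and mast cells. The summed mast cell and basophil markers averaged 43.3 CPM in KO and 52.7 CPM in WT cells under zymosan. Their mean sum was 52.4 CPM in KO and 40.1 CPM in WT cells under LPS, and 34.0 and 44.6 CPM in untreated cells. The part of these and of the eosinophil markers in the Il1rl1 difference was not tested. Il18r1, the IL-18 receptor gene, averaged 0.647 CPM in KO and 0.333 CPM in WT cells under LPS and was called higher in KO cells (log2 0.94, SE 0.25, edgeR adjusted p = 0.00503). In untreated cells it was called lower in KO cells, at 2.10 CPM against 2.98 CPM in WT cells (log2 -0.51, SE 0.15, edgeR adjusted p = 0.0354). Under zymosan Il18r1 averaged 0.846 CPM in KO and 0.81 CPM in WT cells. Its counts were low throughout, at most 180 in a sample, and lowest under LPS.

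All 18 genes of processing and release were tested; with zymosan 10 rose and 4 fell in each genotype, and with LPS 12 rose and 5 fell in KO cells and 11 rose and 4 fell in WT cells. Over all tested genes 31.6% to 35.9% were called higher and 35.2% to 39.7% lower in these comparisons. Casp4, which encodes caspase-11 of the mouse, averaged 146 CPM in KO LPS and 13.0 CPM in KO untreated cells, and 191 CPM in WT LPS and 11.5 CPM in WT untreated cells. Casp1, the gene of the IL-1β and IL-18 converting enzyme, averaged 258 CPM in KO LPS and 37.8 CPM in KO untreated cells, and 295 CPM in WT LPS and 31.5 CPM in WT untreated cells. The LPS response was lower in KO cells for 5 of the 18 and higher for 0, beside 5.84% and 4.61% of all tested genes, among them Casp4 (log2 -0.58, SE 0.12, edgeR adjusted p = 0.00419), Casp1 (log2 -0.46, SE 0.12, edgeR adjusted p = 0.0151) and Nlrp3, the inflammasome sensor gene (log2 -0.38, SE 0.09, edgeR adjusted p = 0.0059). The median of the 18 in this comparison was -0.24, beside 0 for all genes.

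Of the 15 signalling genes, all tested, 6 were lower and 1 higher in KO cells under LPS, 3 lower and 0 higher under zymosan, and 1 lower and 0 higher in untreated cells. Over all tested genes 18.2% were called lower under LPS, 11.4% under zymosan and 5.64% in untreated cells, so the count in untreated cells was near that of all genes. Peli1, an E3 ligase gene, averaged 61.4 CPM in KO and 85.9 CPM in WT cells under LPS (log2 -0.49, SE 0.07, edgeR adjusted p = 4.25e-06), and Myd88, the adaptor gene, 150 CPM in KO and 193 CPM in WT cells (log2 -0.36, SE 0.07, edgeR adjusted p = 0.000254). Irak3, an inhibitory kinase homologue, averaged 166 CPM in KO and 197 CPM in WT cells under zymosan (log2 -0.25, SE 0.04, edgeR adjusted p = 8.07e-05). Ikbkb, the IKKβ gene, was called lower in KO cells in all 3 conditions, by -0.32 under zymosan, -0.31 under LPS and -0.16 in untreated cells.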

How the data were processed

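RNA from bone marrow-derived dendritic cells was sequenced as mRNA libraries, per the labels' protocols. The deposited table holds whole-number counts per gene in 24 columns; the submitters' processing notes name Bowtie2, RSEM 1.2.31, DESeq2 and build mm10, without their roles, and the use of strand in counting is not given in the sources used here. Columns were matched to samples by genotype, treatment and replicate number. Of 38887 Ensembl IDs 37570 (96.6%) were named with the GRCm38 annotation, which also gave exon lengths.

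Counts were tested with edgeR 4.0.16 in R 4.3.3: edgeR's expression filter over 6 groups (14188 genes kept), trimmed mean of M-values scaling (factors 0.88 to 1.19), a mean per group over all 24 samples, quasi-likelihood tests of 12 comparisons, 3 of them interactions, and Benjamini-Hochberg adjustment over all genes in each. The log2 CPM used a prior count of 2. DESeq2 1.42.0, its size factors, no filter, only the groups compared, a replicate block, replicate pairs summed and each library left out were tried as alternatives, and replicates 1 and 2 only or 3 and 4 only were added after seeing the data. Same-numbered samples deviated together in zymosan over untreated (correlations 0.125 to 0.205 in KO and 0.151 to 0.247 in WT). The reported tests used no pairing in any comparison. The replicate block was an alternative only, applied to all 12 comparisons. The labels give no source of such a pairing. Correlations between samples of different numbers were not computed. Pairing by number thus cannot be told apart from the likeness of replicates 1 and 2, and of 3 and 4.

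The members, pathway lists and marker lists were chosen with earlier results of these data known. All 7 members were named whatever their values, with Ern1, up to 3 called genes of largest change per pathway list and comparison, and the 3 most correlated genes per member. Marker genes and receptors without calls were described after their values were seen. Ratios were geometric means over counts per exon length. The depth of 32223256 to 46927434 counts limits Il18 most, at 13 to 35 counts per untreated library.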

Additional observations from a re-analysis of the deposited data

Results flagged for a closer look

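In 8 cases the response to a stimulus differed between the genotypes by the interaction test of edgeR. For the zymosan response, the KO over WT log2 difference was -0.29 for Il1b and -0.66 for Il18bp. For the LPS response, it was -0.63 for Il1a, -0.46 for Il1b, -0.41 for Il1rn, -0.76 for Il18, -0.97 for Il18bp and -0.83 for Il33. Each is a smaller rise in KO than in WT cells; with Il18bp it stands beside a higher untreated level in KO cells, 15.8 CPM against 10.7 CPM in WT cells. With replicate pairs summed, Il18bp under LPS was called and the other 7 were not. In no group of 4 samples did a member have a sample apart from the other 3 by Dixon's test (42 groups, where chance gives about 1 in 20 for independent samples). Where replicates are alike in pairs, this test can hardly find a single sample apart, so its result does not show that the samples were alike.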

How the results depend on the processing

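The number of members called stayed within 1.5 times the reported number in 186 of 216 comparisons with an alternative. With replicates 1 and 2, and 3 and 4, summed, it was 3 for WT zymosan over WT LPS, 1 for KO over WT untreated, 0 for the zymosan interaction and 1 for the LPS interaction. With replicates 1 and 2 only it was 6 for KO zymosan over KO LPS, 5 for KO over WT untreated, 7 for KO over WT under zymosan, 6 for the zymosan interaction and 3 for the difference in zymosan over LPS. With replicates 3 and 4 only it was 4 for KO over WT untreated and 3 for the difference in zymosan over LPS. These subset fits took samples that resembled each other as the replicates of a group, so they can understate the spread and call more members. For the zymosan interaction the number called was 4 with DESeq2, and 1 with DESeq2 size factors, with no filter and with only the groups compared. For the difference in zymosan over LPS it was 2 with DESeq2. With the replicate block it was 5 for the zymosan interaction and 3 for the difference in zymosan over LPS, beside 7 for KO zymosan over KO untreated, and the block ended no call. Leaving out 1 library gave 1 to 2 for KO over WT untreated and 1 to 4 for the zymosan interaction. All values of the 4 ratios kept their direction in the 324 recalculations. Leaving out 1 of 4 samples cannot move a mean difference by more than the spread, so the size of the move was no check. With pairs summed, 2 against 2, no permutation test can pass.

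Of single members, 12 values turned sign, all uncalled in the full fit. Without 1 library these were Il1rn in KO zymosan over KO LPS (-0.11 to 0.01), Il18 (-0.29 to 0.12) and Il1r2 (-0.18 to 0.02) in KO over WT untreated, Il1r2 in the zymosan interaction (-0.20 to 0.05) and Il18 in the difference in zymosan over LPS (-0.11 to 0.01). With replicates 1 and 2 only they were Il1a (-0.01) and Il18 (0.19) in KO over WT untreated. With replicates 3 and 4 only they were Il1r2 in KO zymosan over KO LPS (-0.17), Il1b in KO over WT untreated (0.07), Il33 in KO over WT under zymosan (0.14) and Il18 in the difference in zymosan over LPS (0.05). Il1r2 in KO zymosan over KO LPS was called in opposite directions by these subset fits. It was 0.45 with replicates 1 and 2 only and -0.17 with replicates 3 and 4 only. The cause of the turns in sign was not tested.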
